A study of Mus musculus with 6 samples.

Results

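The Sprr and involucrin genes lie together on mouse chromosome 3, in the epidermal differentiation complex. The 8 genes described here are Sprr1a, Sprr1b, Sprr2a3, Sprr2e, Sprr2f, Sprr2g, Sprr2h and Ivl, out of 48526 genes in the count tables. They were chosen by name after their difference between KO and WT cultures had been seen. Their KO and WT values are therefore given as a description. The fit over all genes includes them, but no p-value is given for a member and its calls are not evidence. All 8 were found in the tables and all 8 passed the filter on low counts. Sprr1b, Sprr2a3 and Sprr2e passed it through the KO libraries, since only 1, 2 and 2 of the 3 WT libraries reached the minimum of the filter.

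RNA was sequenced from primary renal tubular epithelial cells, grown from digested kidney cortex of mice aged 4 to 5 weeks and kept in a medium that held 20 ng/ml EGF and 100 nM hydrocortisone. The KO cultures came from Setd2(F/F)Ksp-Cre+ mice and the WT cultures from Setd2(F/F) littermates, with 3 libraries in each group. Both groups carried the floxed alleles, and Cre, driven by the Cdh16 (Ksp-cadherin) promoter of tubule epithelium, was present in KO alone, so Cre and the deletion of Setd2 cannot be told apart. The labels do not say whether each library came from its own animal, so the spread between libraries may be partly technical. Setd2 encodes the methyltransferase that trimethylates lysine 36 of histone H3.

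The cornified envelope is a protein shell that replaces the plasma membrane of dying keratinocytes in stratified epithelium. Involucrin is one of its first scaffold proteins. The small proline-rich (Sprr) proteins are short cross-bridging precursors, and transglutaminases join both kinds of protein through glutamine and lysine residues. Sprr genes are also known to be switched on in simple epithelia and other tissues after injury or stress.

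The promoters of 3 members with many reads and of 1 neighbour that was near the detection limit are shown, because they share short sequence elements. Each sequence is the RefSeq window of GRCm38.p6 from 250 bases before to 50 bases after the gene start, read 5′ to 3′ on the strand of the gene. Capitals mark the letters TGANTCA (AP-1 type, with any base in the middle, a pattern that reads the same way on both strands). They also mark ATGCAAAT on either strand (the octamer, printed as ATTTGCAT where it lies on the other strand). TATAAA on either strand (the TATA box) is in capitals too. The windows are chr3:92485832-92486131 on the minus strand for Sprr1a, chr3:92364937-92365236 on the plus strand for Sprr2f, chr3:92338890-92339189 on the plus strand for Sprr2d and chr3:92573686-92573985 on the minus strand for Ivl.
Sprr1a: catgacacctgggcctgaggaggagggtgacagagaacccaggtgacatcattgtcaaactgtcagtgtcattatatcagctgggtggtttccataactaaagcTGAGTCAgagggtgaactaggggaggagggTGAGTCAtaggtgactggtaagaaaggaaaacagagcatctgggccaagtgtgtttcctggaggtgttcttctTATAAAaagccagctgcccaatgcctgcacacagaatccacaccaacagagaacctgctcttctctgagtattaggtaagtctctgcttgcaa
Sprr2f: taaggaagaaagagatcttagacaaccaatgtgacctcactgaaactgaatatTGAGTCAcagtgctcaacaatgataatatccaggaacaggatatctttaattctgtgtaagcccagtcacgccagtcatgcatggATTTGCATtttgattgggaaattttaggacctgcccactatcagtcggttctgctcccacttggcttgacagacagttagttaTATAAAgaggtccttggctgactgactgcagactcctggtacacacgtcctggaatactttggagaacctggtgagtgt
Sprr2d: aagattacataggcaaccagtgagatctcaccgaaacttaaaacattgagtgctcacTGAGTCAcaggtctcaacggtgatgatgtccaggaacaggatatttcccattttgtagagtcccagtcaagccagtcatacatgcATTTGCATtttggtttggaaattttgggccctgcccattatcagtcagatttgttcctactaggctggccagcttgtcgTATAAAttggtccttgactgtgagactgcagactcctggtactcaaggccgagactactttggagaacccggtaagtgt
Ivl: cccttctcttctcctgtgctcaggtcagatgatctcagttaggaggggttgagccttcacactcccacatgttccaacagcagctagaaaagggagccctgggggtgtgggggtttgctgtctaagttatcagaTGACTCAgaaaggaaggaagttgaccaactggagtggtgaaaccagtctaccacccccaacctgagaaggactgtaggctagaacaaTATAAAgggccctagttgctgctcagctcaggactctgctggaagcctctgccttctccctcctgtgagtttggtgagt

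Of the 8 members, 7 had a promoter in the RefSeq table, all but Sprr2g. TGANTCA was present in 6 of these 7, in Ivl, Sprr1a, Sprr1b, Sprr2e, Sprr2f and Sprr2h, against 7.81% of all 32851 promoter windows of that length. TATAAA was in the same 6 promoters, against 13.6% of all windows. The octamer was in 3 of 7, Sprr2e, Sprr2f and Sprr2h, against 1.74% of all windows. The promoters of these 3 genes are alike, with 69.3% to 82.4% of aligned bases identical, so they are not independent cases. In the Sprr2 promoters the elements kept their places: the AP-1 letters began at -193, -197 and -198 from the start of Sprr2e, Sprr2f and Sprr2h, and TATAAA began at -29 in all 3. In Ivl the AP-1 letters began at -116. In Sprr1b they were TGAATCA, at -111, while the middle letter was G or C in the other members that held the pattern. Sprr1a held TGAGTCA at 2 places, -146 and -116. The window of Sprr2a3 held none of the 3 elements. That window ends before the start of Sprr2a3 in GENCODE, since the annotations place the start differently.

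The same elements were also present next to Sprr genes with almost no reads. Of 8 promoters of the other Sprr genes, 4 held TGANTCA, 4 held the octamer and 5 held TATAAA. Sprr2b, Sprr2d, Sprr2i and Sprr2k each held all of these elements. Sprr2a1 and Sprr2a2, whose windows are much like that of Sprr2a3, held none of them. The annotations place the start of Sprr2a2 differently too. Sprr2d, shown above, and Sprr2e had the most similar promoters of the Sprr2 genes outside the Sprr2a group, with 89.6% of aligned bases identical. The lowest identity among the 21 pairs of those 7 promoters was 68%. Of the other letters searched on both strands, GGAAGT (ETS type) was in 1 of 7 member promoters (Ivl) and in 23.8% of all windows. CCACCC was in 3 of 7 (Ivl, Sprr1a and Sprr1b) and in 31.5% of all windows. An interferon response type motif (GAAA, any 2 bases, GAAA) and AACCNGTT (grainyhead type) were in none of the 7, and in 3.44% and 2.09% of all windows.

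Read assignment was checked first, since copies of a gene family can share reads. The share of 50-base stretches of a gene's GENCODE transcripts that also occurred in a transcript of another gene was 0% for Sprr1a, Sprr1b, Sprr2g and Sprr2h. It was 0.714% for Sprr2f, 0.482% for Ivl and 10.2% for Sprr2e. It was 61.1% for Sprr2a3, and 96.3% and 96.5% for its neighbours Sprr2a1 and Sprr2a2, whose gene models also overlap each other. How reads with several matches were counted, and the read length, are not stated. The level of Sprr2a3 is therefore uncertain, as are the low counts of Sprr2a1 and Sprr2a2, while 6 of the 8 members share less than 1% of such stretches.

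Values are CPM, the reads of a gene relative to all reads of its library, scaled with TMM library factors. The libraries held 86078636 to 106974842 counts. KO replicates 2 and 3 differed from the other libraries in Xist, the RNA that coats the inactive X chromosome in female cells. It was at 507 and 606 CPM there and at 0.348 to 0.683 CPM in the other 4 libraries. The Y-linked gene Ddx3y was at 0.084 and 0.0815 CPM in KO replicates 2 and 3 and at 51.05 to 66.9 CPM in the others. By these 2 genes, the WT libraries and KO replicate 1 came from male cells and KO replicates 2 and 3 from female cells. KO replicate 1 thus came from a different animal than KO replicates 2 and 3. The spread between them includes a difference of animal and sex.

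All the members had higher mean levels in KO than in WT cultures, by 2.38-fold to 7.52-fold. In 7 of the 8 every KO library lay above every WT library, and in Sprr1b the groups overlapped. Across all 17571 tested genes, the KO libraries lay above the WT libraries in 20.6%, and the groups did not overlap, in either direction, in 41.9%. By edgeR's quasi-likelihood test with Benjamini-Hochberg adjustment over all tested genes, 7 of the 8 members were called higher, where 12% of tested genes were. These counts restate how the genes were chosen. In bulk RNA, more cells that make a transcript and more transcript per cell cannot be told apart.

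Sprr1a, a cross-bridging envelope precursor, was the most abundant member. It stood at 30.7, 32.0 and 26.4 CPM in WT replicates 1 to 3 and at 137, 73.6 and 85.8 CPM in KO replicates 1 to 3. The WT libraries lay close together, and KO replicate 1 stood well above the other KO libraries. The mean was 29.7 ± 2.93 CPM in WT against 98.9 ± 33.9 CPM in KO (SD, n = 3 each), a log2 fold change of 1.74 ± 0.19 (SE).

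Its paralog Sprr1b was barely detected. It had 11, 3 and 1 reads in the WT libraries and 12, 13 and 12 reads in the KO libraries. WT replicate 1 reached the KO level, and the other WT libraries were lower. The log2 fold change was 1.30 ± 0.61 (SE), and it was 2.67 without WT replicate 1 and 0.81 without WT replicate 3.

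Sprr2g and Sprr2f held most of the Sprr2 reads. Sprr2g is annotated in GENCODE as a polymorphic pseudogene, so its reads do not by themselves show a protein. It stood at 6.81, 7.84 and 6.22 CPM in WT and at 56.8, 32.7 and 38.4 CPM in KO replicates 1 to 3. Again KO replicate 1 was the highest library. The log2 fold change of Sprr2g was 2.61 ± 0.18 (SE).

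Sprr2f, a protein-coding member of the Sprr2 family, stood at 1.67, 2.19 and 2.06 CPM in WT and at 17.7, 12.2 and 14.7 CPM in KO. Its KO libraries were more even than those of Sprr1a and Sprr2g, with the highest 1.45 times the lowest. The means of 1.97 ± 0.27 and 14.8 ± 2.75 CPM (SD, n = 3 each) gave a log2 fold change of 2.91 ± 0.16 (SE), the highest of the 8 members with all libraries in the fit. Without WT replicate 1 it was 2.81, below the 2.92 of Sprr2h.

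The other Sprr2 members were low. Sprr2h stood at 0.73, 0.424 and 0.249 CPM in WT and at 3.67, 2.10 and 1.90 CPM in KO, with replicate 1 the highest library of each group. Its log2 fold change was 2.46 ± 0.35 (SE). Sprr2e had 11, 12 and 5 reads in WT and 38, 43 and 53 reads in KO, a log2 fold change of 2.28 ± 0.34 (SE). Sprr2a3 had 8, 18 and 13 reads in WT and 41, 33 and 53 reads in KO, a log2 fold change of 1.74 ± 0.32 (SE). In both of these genes KO replicate 3, not KO replicate 1, was the highest library.

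Ivl, which encodes involucrin, stood at 11.2, 12.9 and 12.0 CPM in WT and at 35.8, 38.8 and 47.2 CPM in KO replicates 1 to 3. No WT library came near the KO range. From 12.1 ± 0.86 CPM in WT to 40.6 ± 5.88 CPM in KO (SD, n = 3 each), the difference on the log2 scale was 1.75 ± 0.11 (SE), with the smallest standard error of the 8. KO replicate 1, the highest KO library for Sprr1a and Sprr2g, was the lowest for Ivl.

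**Figure D1:**
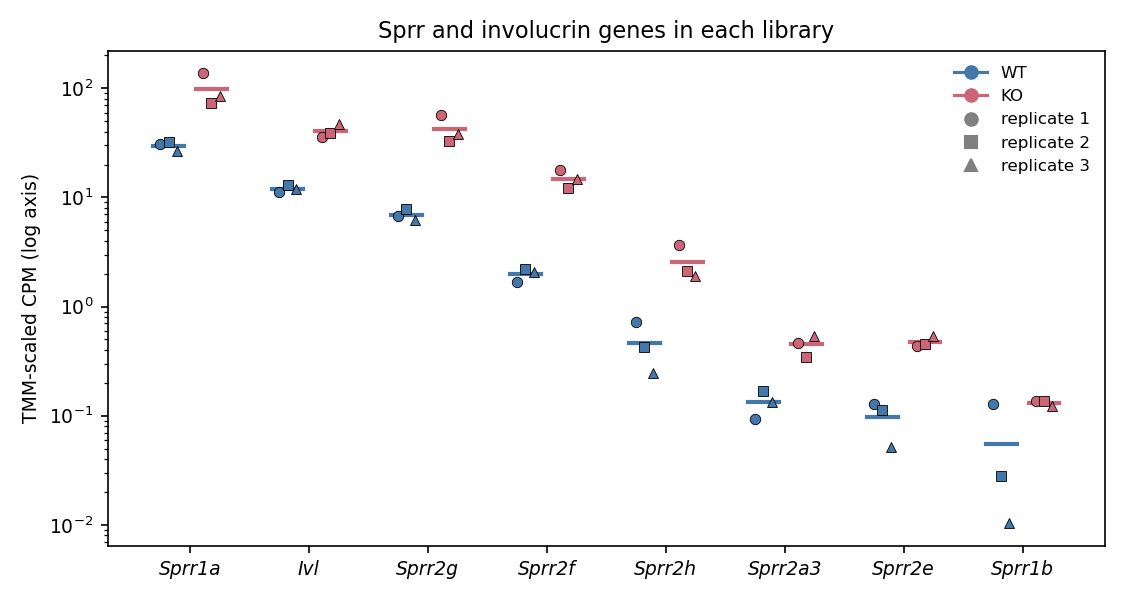
TMM-scaled CPM (log axis) of the 8 members in each of 6 libraries, with WT in blue, KO in red, symbols for the replicate and lines for the group means. The groups are apart in 7 genes and overlap in Sprr1b, and KO replicate 1 is the highest KO library in Sprr1a, Sprr2g, Sprr2f and Sprr2h but the lowest in Ivl.

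KO replicate 1, which was low in Xist like the WT libraries, had the highest Sprr1a, Sprr2f, Sprr2g and Sprr2h levels of all. Both Xist-high libraries are KO, so a fit with a term for them compares KO replicate 1 alone with the 3 WT libraries, and it takes the spread of a lone library from the others. By Xist and Ddx3y, KO replicate 1 and the WT libraries all came from male cells, so this comparison lies within 1 sex. It rests on 1 KO library, and whether the differences depend on sex was not tested. In that comparison the log2 fold changes were 2.21 for Sprr1a, 3.16 for Sprr2f, 3.03 for Sprr2g and 1.57 for Ivl. Setd2 itself was not called (edgeR adjusted p = 0.481), with WT libraries at 184.55, 167.76 and 152.03 CPM and KO libraries at 163.38, 153.66 and 158.46 CPM. Gene-level counts do not check the deletion, because no source used here names the floxed exons.

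Levels can be compared between genes only per length, as CPM per kilobase of exon. In WT the order was Sprr1a at 36.8 ± 3.64, Sprr2g at 10.7 ± 1.26, Ivl at 6.27 ± 0.446 and Sprr2f at 3.24 ± 0.449 (SD, n = 3 each). The libraries of these 4 genes did not overlap. Below them came Sprr2h at 0.621 and Sprr2e at 0.15, then Sprr1b and Sprr2a3. The libraries of Sprr1b overlapped those of both Sprr2e and Sprr2a3. In KO the order began with Sprr1a at 122.8 ± 42.1 and Sprr2g at 65.5 ± 19.3 (SD, n = 3 each). Sprr2f at 24.4 ± 4.52 and Ivl at 21.1 ± 3.06 followed with overlapping libraries. The place of Sprr2f and Ivl was thus separate in WT and not separate in KO.

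Summed over the 17 Sprr genes in the tables, the level was 39.6 ± 3.83 CPM in WT against 160.4 ± 50.1 CPM in KO (SD, n = 3 each). The makeup of that sum differed between the groups. Sprr1a held 76.0%, 74.5% and 74.5% of all Sprr reads in WT replicates 1 to 3 and 63.4%, 60.4% and 60.3% in KO. Sprr2g held 16.9%, 18.3% and 17.6% in WT and 26.2%, 26.9% and 27.0% in KO. Sprr2f held 4.13%, 5.11% and 5.82% in WT and 8.15%, 10.0% and 10.3% in KO. These shares are ratios within a library and do not depend on the scaling between libraries. The shares of Sprr1a and Sprr2g were close together within each group, while that of Sprr2f was less even. The summed level of KO replicate 1, by contrast, was 217 CPM against 121.8 and 142 CPM in KO replicates 2 and 3. With the reads of all 13 Sprr2 genes added into a single row, the log2 fold change of that row was 2.64 ± 0.17 (SE).

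**Figure D2:**
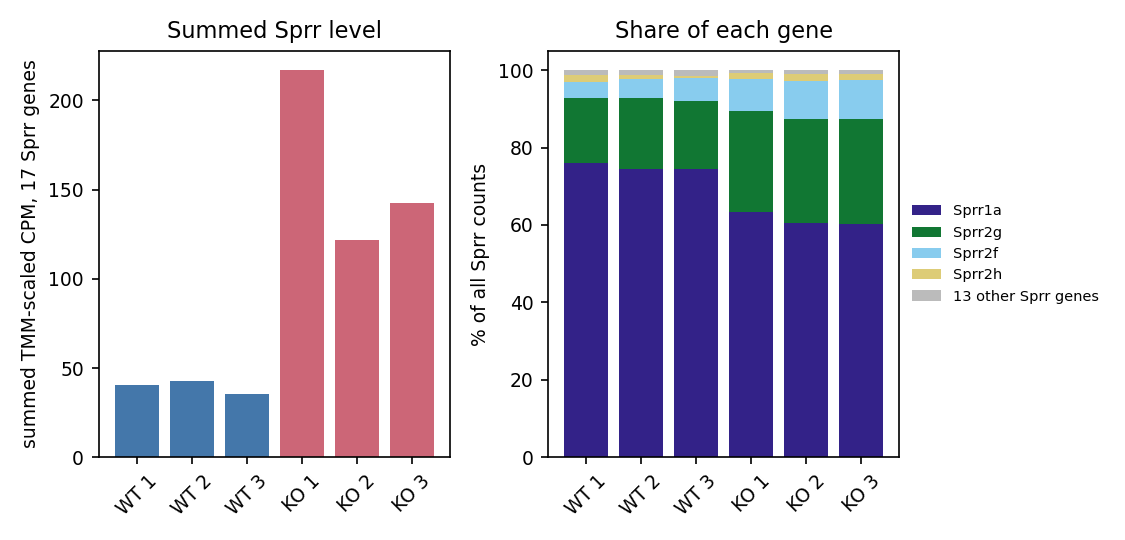
Left, summed TMM-scaled CPM of the 17 Sprr genes in each library, with WT in blue and KO in red. Right, the share of all Sprr reads in each gene: Sprr1a takes 74.5% to 76.0% in WT and 60.3% to 63.4% in KO, and Sprr2g and Sprr2f take more in KO.

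The other Sprr genes were at or near the detection limit in both groups. All 10 had reads, from 1 (Sprr4) to 40 (Sprr2d) over the 6 libraries, and none passed the filter. Sprr2d, next to Sprr2e on the chromosome, had 2, 10 and 6 reads in WT and 8, 6 and 8 reads in KO. Sprr2i had 0, 0 and 8 reads in WT and 9, 7 and 11 reads in KO. Sprr3, an envelope precursor of internal squamous epithelium such as the oesophagus, had 1 read in each group. Sprr4 had no read in WT. A count of 0 allows up to 3 reads, or 0.0282 to 0.0347 CPM across the libraries, for counting error alone.

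The 8 members span 288.3 kb of chromosome 3, from Sprr2a3 to Ivl (GRCm38, chr3:92285417-92573735). The coordinates of the most abundant are chr3:92483952-92485895 for Sprr1a (ENSMUSG00000050359), chr3:92373915-92375229 for Sprr2g (ENSMUSG00000046203), chr3:92365187-92366442 for Sprr2f (ENSMUSG00000050635) and chr3:92570902-92573735 for Ivl (ENSMUSG00000049128). Within that span the tables list 12 other genes. Only 1 of them, the predicted gene Gm9774, had enough reads to be tested, and it was not called (edgeR adjusted p = 0.0929). Its mean level was 0.522 CPM in WT against 0.821 in KO.

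The whole complex between S100a1 and S100a10 held 30 tested genes that are not members, Gm9774 among them. Of these, 11 were higher in KO and none lower, with a median log2 fold change of 0.53. Over all tested genes, 12% were higher and 9.08% lower, with a median of -0.01. The 11 are the same genes that are counted again, as 7 and 4, in the lists of the complex below. In the 1000 kb before S100a1, 3 of 30 tested genes were higher and 3 lower. In the 1000 kb after S100a10, none of 7 tested genes was called.

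A list of 36 other genes of the complex, most of them envelope precursors, had 12 tested members. Of these, 7 were higher in KO, none was lower and 5 were not called, with a median log2 fold change of 1.09. Crnn and Kprp, among the 7, passed the filter through the KO libraries. Crnn, with 5, 11 and 4 reads in WT, reached its minimum in no WT library. Kprp, with 9, 13 and 15 reads, fell just short of it in WT replicate 1. Over all tested genes, 12% were higher and 9.08% lower. The 24 untested genes include the filaggrins Flg and Flg2, Hrnr and Rptn, and 9 genes of the list had no read in any library.

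The late cornified envelope genes code for small proteins that are added to the envelope late. Lce1g rose from 0.498, 0.555 and 0.715 CPM in WT to 3.86, 1.41 and 3.22 CPM in KO. Every KO library lay above every WT library, with KO replicate 2 the lowest of the KO group (log2 fold change 2.26 ± 0.33 SE, edgeR adjusted p = 0.00104). Lce1h and Lce1b also rose, with log2 fold changes of 1.18 and 1.08. Lce1f, Lce3c and Lce6a were not called (edgeR adjusted p = 0.0563, 0.205 and 0.152). The call of Lce1b ended without KO replicate 3, and with KO replicate 1 as the lone KO library.

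Among the other precursors, Kprp (keratinocyte proline-rich protein) rose from 0.127 ± 0.026 to 0.643 ± 0.19 CPM (SD, n = 3 each; log2 fold change 2.31 ± 0.32 SE, edgeR adjusted p = 0.000742). Crct1 rose from 1.80 ± 0.194 to 3.98 ± 1.58 CPM, with KO replicate 1 the highest library at 5.715 CPM. Tchh (trichohyalin, of the hair follicle sheath) rose from 3.04 to 4.86 CPM. Crnn (cornulin) rose from 0.068 to 0.34 CPM, and with KO replicate 1 as the lone KO library it was not called (edgeR adjusted p = 0.146). That library, at 0.249 CPM, lay above the WT range of 0.0414 to 0.104 CPM. Lor, the loricrin gene, whose product makes up most of the envelope of the epidermis, stood at 1.63 ± 0.093 CPM in WT against 1.77 ± 0.105 CPM in KO (SD, n = 3 each) and was not called (edgeR adjusted p = 0.592).

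The S100 genes at both ends of the complex code for calcium-binding proteins. Of 11 tested, 4 were higher, none was lower and 7 were not called, beside 12% higher and 9.08% lower over all tested genes. S100a8, among the 4, passed the filter through the KO libraries, since WT replicate 1, with 7 reads, was below its minimum. The calls of S100a11 and S100a1 ended without KO replicate 3, and that of S100a11 without KO replicate 1 as well. That of S100a1 also ended with KO replicate 1 as the lone KO library. There S100a1 stood at 54.8 CPM, above the WT range of 33.0 to 42.9 CPM. S100a7a rose from 25.3 to 44.1 CPM and S100a8 from 0.137 to 0.441 CPM, while the abundant S100a6 stood at 1517.5 CPM in WT against 1421 in KO (edgeR adjusted p = 0.64).

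**Figure D3:**
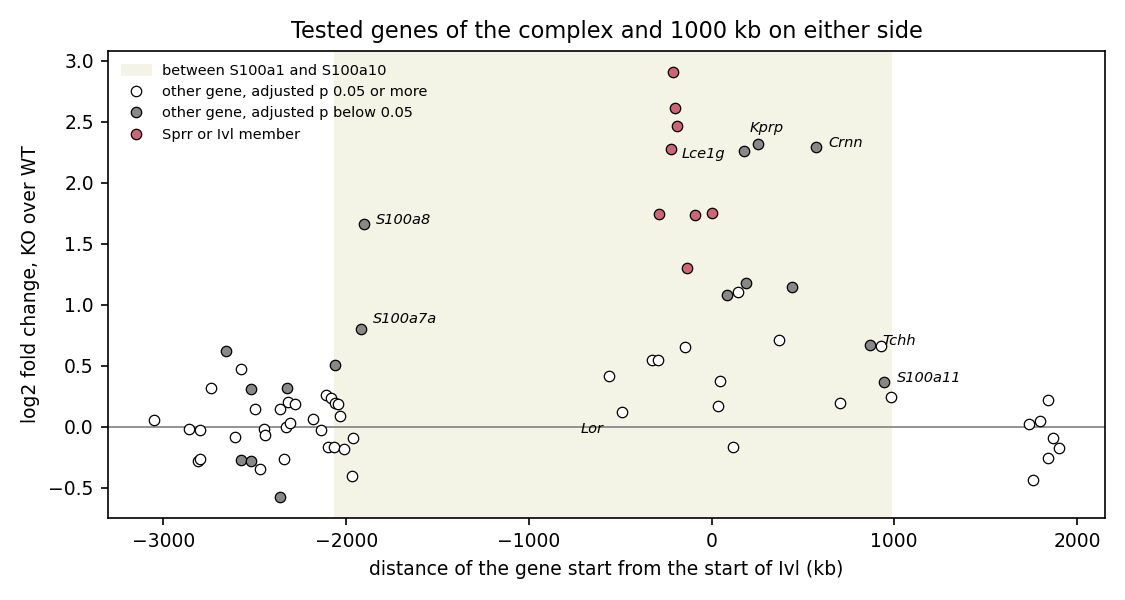
Log2 fold change of KO over WT against the distance of each tested gene's start from that of Ivl, in kb, for the complex (shaded) and 1000 kb on either side. Red points are the members, grey points other genes past the threshold and white points other genes that were not called; Kprp, Lce1g and Crnn, on the S100a10 side of Ivl, have log2 fold changes of 2.31, 2.26 and 2.29, while Lor is at 0.12.

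Envelope proteins and crosslinking enzymes coded elsewhere were listed separately. Of 14 tested genes, 8 were higher, 1 was lower and 5 were not called, with a median log2 fold change of 0.33. Cnfn (cornifelin), among the 8, had 3, 7 and 7 reads in WT and passed the filter through the KO libraries. Its call ended with the DESeq2 test and without WT replicate 1, WT replicate 2, KO replicate 1 or KO replicate 3. Over all tested genes, 12% were higher and 9.08% lower. Serpinb2, a serine protease inhibitor found in the envelope, rose from 0.614, 0.442 and 0.238 CPM in WT to 3.61, 1.12 and 1.84 CPM in KO, with KO replicate 1 again highest (log2 fold change 2.35 ± 0.42 SE, edgeR adjusted p = 0.00326). Casp14, the caspase of terminal keratinocyte differentiation, rose with a log2 fold change of 1.22. Scel (sciellin) rose from 8.06 ± 1.77 to 15.7 ± 1.26 CPM, and Evpl (envoplakin) from 17.9 ± 3.48 to 29.6 ± 1.54 CPM (SD, n = 3 each).

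The enzymes that join involucrin and Sprr proteins did not pass the test. Tgm1, the main transglutaminase of the envelope, was at 22.0, 23.7 and 28.3 CPM in WT against 27.6, 29.7 and 21.7 CPM in KO, with overlapping groups (edgeR adjusted p = 0.626). Tgm2 was at 78.3 CPM in WT against 94.8 in KO (edgeR adjusted p = 0.0695), and Tgm3 and Tgm5 were below the filter. Anxa1, a calcium- and phospholipid-binding protein, fell by 0.53 on the log2 scale, from 801 ± 2.26 to 556 ± 46.0 CPM. Without KO replicate 1, 4 genes of this list were higher. With KO replicate 1 as the lone KO library, 3 were higher and 0 lower.

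Few keratins of stratified epithelium were detected. Of 5 tested, none was higher, 2 were lower and 3 were not called, beside 12% higher and 9.08% lower over all tested genes. So few genes do not set the list apart. Krt17, a keratin of basal and wounded epithelium, fell from 29.3, 57.7 and 58.5 CPM in WT to 11.7, 10.4 and 16.6 CPM in KO. Krt4, of internal squamous epithelium, fell from 6.15 to 3.00 CPM. Krt5, the basal keratin, was near the filter, at 0.162 CPM in WT against 0.113 in KO. Krt1, Krt13, Krt14, Krt15, Krt6a and Krt6b were below the filter, and Krt2 had no read.

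Of 27 tested transcription factors of squamous differentiation, 7 were higher, 3 were lower and 17 were not called, with a median log2 fold change of 0.17. The share over all tested genes was 12% higher and 9.08% lower, so the count of lower genes is near the background. Grhl3, a grainyhead factor of the epidermal barrier, rose from 1.33, 1.43 and 1.28 CPM in WT to 4.17, 3.22 and 2.36 CPM in KO. Its more abundant relative Grhl2 fell from 98.6, 89.9 and 97.7 CPM in WT to 74.8, 74.2 and 70.5 CPM in KO (edgeR adjusted p = 0.00393). Maf, which acts in terminal keratinocyte differentiation, rose from 1.05 to 2.68 CPM, and Klf5, a Krüppel-like factor of proliferating epithelium, from 44.98 to 62.8 CPM.

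Of the AP-1 subunits, whose element is marked in the promoters above, Jund rose from 13.2 ± 2.39 to 24.2 ± 2.68 CPM (SD, n = 3 each) and Fosl1 from 30.6 to 46.8 CPM. Fosl2 fell by 0.26 on the log2 scale. Jun, Junb and Fos were not called (edgeR adjusted p = 0.238, 0.0718 and 0.079). Trp63, the p63 factor needed for stratified epithelium, fell from 2.40 to 1.42 CPM. The calls of Trp63 and Fosl2 ended without WT replicate 2, KO replicate 2 or KO replicate 3, and that of Fosl2 without KO replicate 1 as well. With KO replicate 1 as the lone KO library, no gene of the list was lower.

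**Figure D4:**
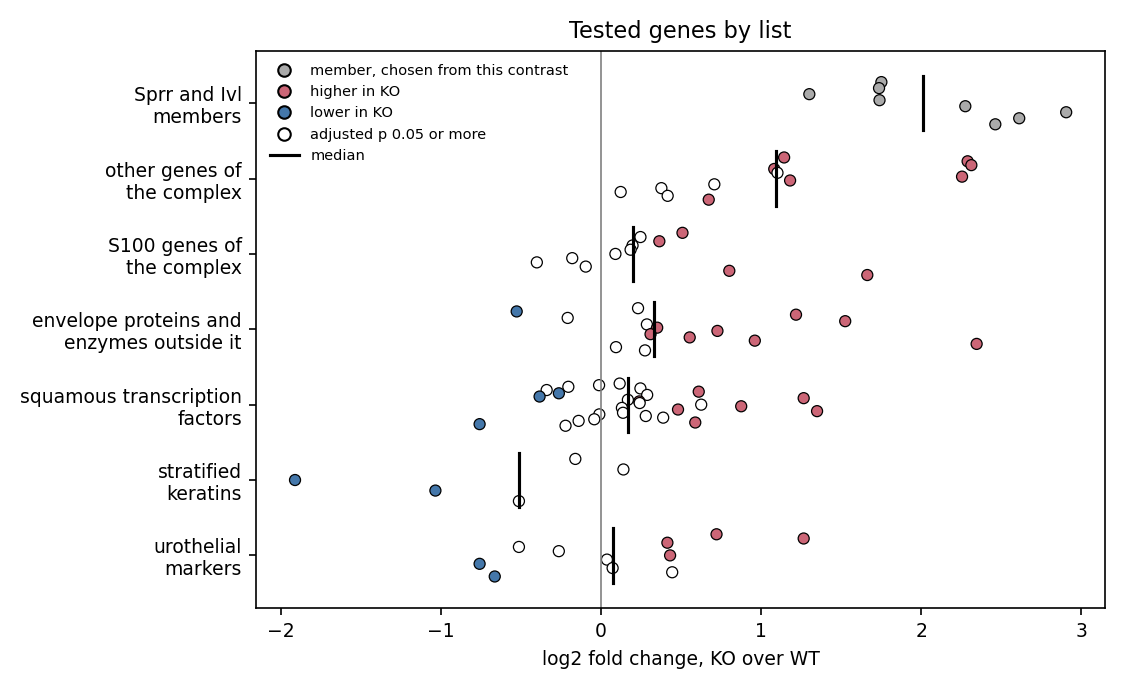
Log2 fold change of KO over WT of each tested gene, in rows by list, with the median as a black line. The members (grey) were chosen from this contrast, so their calls are not shown. In the other rows red is higher, blue lower and white not called; 7 of 12 other genes of the complex are higher, while 2 of 5 stratified keratins are lower.

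Markers of cells that normally make envelope genes were compared next. Of 6 tested markers of epidermal keratinocytes, none was higher and 1, Trp63, was lower, which is near the shares over all tested genes (12% and 9.08%). The 12 markers summed to 11.03 to 12.7 CPM in WT and 9.50 to 10.4 CPM in KO, below the WT range, and 6 of the 12, among them Krt1, Krt14 and Flg, were below the filter. Of 11 tested urothelial markers, 4 were higher, 2 were lower and 5 were not called; Trp63, Grhl3 and Krt5 are on this list too. Their sum was 244 to 263 CPM in WT and 331 to 343 CPM in KO, most of it Krt20, which rose from 233.7 ± 9.73 to 311.7 ± 5.69 CPM (SD, n = 3 each). The other higher markers of this list were Grhl3, given above, Foxa1, from 4.18 to 6.90 CPM, and Psca, from 5.41 to 7.30 CPM. The call of Psca ended without WT replicate 1, WT replicate 3, KO replicate 1, KO replicate 2 or KO replicate 3. Of the uroplakin genes, Upk1b and Upk3a were below the filter and Upk1a and Upk2 were not called. Upk3b fell from 6.10 to 3.85 CPM.

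Of 11 tested tubule markers, 3 were higher, none was lower and 8 were not called. Cdh16, whose promoter drives Cre, rose from 735 to 884 CPM, Lrp2 (megalin, of proximal tubule) from 10.04 to 17.3 CPM and Pax2 from 44.6 to 63.4 CPM. Without KO replicate 3, 1 of the 11 was higher. Pax8 was at 147 CPM in both groups. Slc34a1, of differentiated proximal tubule, had 1 read in all 6 libraries, and Aqp2, of the collecting duct, was at 0.119 CPM in WT against 0.0886 in KO. Markers of other kidney cells were counted in the same way, beside 12% higher over all tested genes. The summed level was 30.5 to 36.03 CPM in WT and 45.1 to 54.6 CPM in KO for leukocytes (5 of 11 tested markers higher). It was 18.6 to 20.1 and 27.9 to 38.0 CPM for endothelium (5 of 10), and 105 to 108 and 171 to 206 CPM for podocytes (5 of 8). For fibroblasts and pericytes it was 65.4 to 89.5 and 70.0 to 127 CPM (5 of 8). None of these lists had a marker that was lower. Leukocyte markers that were higher numbered 2 without KO replicate 1 or KO replicate 3, and 3 without WT replicate 2 or KO replicate 2. Fibroblast markers that were higher numbered 3 without WT replicate 1, WT replicate 2, KO replicate 1 or KO replicate 3. With KO replicate 1 as the lone KO library the counts were 1 for leukocytes, 6 for endothelium, 2 for podocytes, 4 for fibroblasts and 0 for tubule. The part of these cells in the member levels was not tested.

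Over the 6 libraries, the genes whose log2 CPM most resembled the mean standardised profile of the 8 members were Ppp3cc, Gm15663, Krt20, Fam3c, Arhgap6, Kcnj10, Tnfrsf23 and Map1b. Pearson's r ran from 0.9971 to 0.9996 among 11502 compared genes with a mean of at least 2 CPM. With 2 groups that stand apart, this measure mostly reads the difference between the groups, and 369 genes had r above 0.95. The fold changes of these 8 were smaller than those of the members, from 1.22-fold for Fam3c to 2.23-fold for Tnfrsf23, a decoy receptor of the TNF family.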

How the data were processed

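For each of 6 libraries the authors deposited raw gene counts, whole numbers by Ensembl gene. The tools, per the submitters' processing notes, were Trimmomatic 0.38, STAR 2.7.1a and HTSeq 0.11.2, with mm10 as the build; roles and settings are not stated. No source used here gives the strand setting, annotation release or treatment of multi-mapped reads, which bears on near-identical copies. GENCODE M21 (GRCm38) supplied symbols, coordinates and summed exon lengths for 48144 of 48526 genes. RefSeq (GRCm38.p6) supplied promoters.

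Counts from all 6 libraries were fitted with edgeR 4.0.16 in R 4.3.3, using filterByExpr defaults (17571 genes kept), TMM factors, genotype as the term and Benjamini-Hochberg adjustment over all tested genes, with a threshold of 0.05. The SE of a log2 fold change is its size over the square root of the F statistic. The script was tested on simulated data. Alternatives were other scalings and filters, DESeq2 1.42.0, limma-voom (limma 3.58.1), a replicate block, a term for the 2 Xist-high KO libraries (which compares KO replicate 1 alone with WT), summed Sprr2 reads, and leaving out each library.

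Named genes were the members, the other Sprr genes, tested genes of the complex, up to 4 called genes per list (or the 2 most abundant), Setd2, Xist and the 8 genes most like the members. Others were named after their values were seen. The members, lists and tests were chosen with earlier results of these data known.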

Additional observations from a re-analysis of the deposited data

How the results depend on the processing

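The log2 fold changes of the 8 members were positive in all 112 recomputed values, and all but 5 of these moved by less than the spread between libraries. The 5 were 2.21 (Sprr1a), 3.16 (Sprr2f), 3.03 (Sprr2g) and 1.57 (Ivl) with the Xist term, which leaves KO replicate 1 alone against the 3 WT libraries, and 2.67 for Sprr1b without WT replicate 1. With 1 library left out the log2 fold change of Sprr1b ran from 0.81 to 2.67. With a mean CPM of at least 1, Sprr1b, Sprr2a3 and Sprr2e could not be fitted, and Sprr2 genes had no value of their own once summed.

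Over all genes, the Xist term, with its KO arm of 1 library, gave 878 higher and 285 lower. By Xist and Ddx3y these counts compare male KO with male WT cells. They rest on fewer samples, so they do not show whether the calls depend on sex. With 1 library left out, 1228 to 2142 genes were higher and 455 to 1624 lower, both lowest without KO replicate 1. With the Xist term, envelope genes outside the complex had 3 higher and 0 lower, and the squamous factors, keratinocyte markers and urothelial markers had 0 lower. With a mean CPM of at least 1, 4 other genes of the complex were higher, since fewer were tested. With 1 library left out, envelope genes outside the complex had 4 to 8 higher, squamous factors 1 to 4 lower, keratinocyte markers 0 to 2 lower and urothelial markers 1 to 2 lower. Apart from the smaller number of samples or genes, the cause of these shifts was not tested.

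The replicate block gave 2139 genes higher and 1455 lower. Deviations of same-numbered libraries correlated at 0.0417, -0.146 and 0.0324. With 3 libraries per group, and both sexes in KO, these values cannot tell whether same-numbered libraries were paired. Depth limits Sprr1b, Sprr2a3, Sprr2e and the other Sprr genes, where counts of at most 53 per library set the precision.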
